A study of Mus musculus with 947 samples.

Results

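The miR-200 family of the mouse has 5 members, and their dominant 3p strands, mmu-miR-200b-3p, mmu-miR-200a-3p, mmu-miR-429-3p, mmu-miR-200c-3p and mmu-miR-141-3p, were taken by name from the deposited small-RNA tables of 2 cohorts. They are 5 of 1076 miRNAs listed in the aging cohort and of 795 listed in the parabiosis cohort, and they were chosen by name, not by a threshold on a value. The aging cohort held 768 libraries of 16 tissues from male and virgin female C57BL/6JN mice of 10 ages, 1 month and then every 3 months from 3 to 27, with females up to 21 months only. The parabiosis cohort held 176 libraries of 6 tissues from male mice whose flanks had been joined in pairs for 5 weeks: isochronic young (IY, 3 or 4.5 months), heterochronic young (HY, 4 months), heterochronic aged (HA, 19 months) and isochronic aged (IA, 19 months). The HY mice were of another strain than the other groups, so that in any comparison of HY with another group the pairing and the strain cannot be told apart. The study's sources differ on which of the IY, HA and IA mice were C57BL/6J and which C57BL/6JN. All mice of both cohorts were perfused with saline before dissection, the small intestine was duodenum, the brain a hemibrain, the skin dorsal and the limb muscle the tibialis anterior. For the subcutaneous fat (SCAT) the study's methods name the inguinal pad, whereas its results call SCAT a posterior depot and use inguinal for the gonadal fat (GAT).

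A miRNA is a short RNA that guides a silencing complex to messenger RNAs, mainly through its seed, bases 2 to 8 of the mature strand. The miR-200 family is a classic marker of epithelial cells. Its best known targets are the transcription factors ZEB1 and ZEB2, repressors of the adhesion gene E-cadherin, and loss of the family accompanies the passage of epithelial cells to a mesenchymal state. In the brain the family is known from the olfactory system, where it acts in the formation of olfactory neurons.

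The mature sequences are shown because the family falls into 2 seed classes and 2 genomic clusters that do not coincide, and the results below turn on both. Each is written 5′ to 3′ with the seed in capitals, as RefSeq gives it on GRCm38.p6, and all 5 lie on the minus strand.
miR-200b-3p: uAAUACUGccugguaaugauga
miR-200a-3p: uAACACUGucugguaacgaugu
miR-429-3p: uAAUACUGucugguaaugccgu
miR-200c-3p: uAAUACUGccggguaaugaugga
miR-141-3p: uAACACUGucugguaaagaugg
The seed AAUACUG is carried by miR-200b, miR-429 and miR-200c, and AACACUG by miR-200a and miR-141. Among 1679 mature sequences of the RefSeq table no other miRNA had either seed.

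The mature strands of miR-200b (chr4:156055685-156055706), miR-200a (chr4:156054911-156054932) and miR-429 (chr4:156053916-156053937) come from one cluster, whose 3 precursors span 1846 bases within an intron of Ttll10 and within the non-coding transcript Gm13648. The precursor of miR-429 overlaps an exon of Gm13648. Those of miR-200c (chr6:124718324-124718346) and miR-141 (chr6:124717917-124717938) come from a second cluster of 2 precursors that spans 477 bases within the antisense transcript Gm15884, near the protein-coding genes Phb2 and Ptpn6. The precursor of miR-141 also overlaps an exon of Gm29008. Counted from base 1 at the 5′ end, miR-200b and miR-200c differ over their first 22 bases only by U11G and A22G, and miR-200a and miR-141 only by C17A and U22G. The authors allowed 1 mismatch when they assigned reads, so a share of the reads of one such twin may stand under the other, and the value of the rarer twin is uncertain. This bears most on marrow, where the median of miR-200c-3p was 92.1 rpmm (reads-per-million of the mapped reads) and that of miR-200b-3p 10.4.

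All values are rpmm as deposited. The libraries of the aging cohort held 2.29 to 167 M mapped reads (median 20.1 M) and those of the parabiosis cohort 9.20 to 47.6 M (median 20.1 M), so that 1 read was worth 0.00599 to 0.437 rpmm and 0.0210 to 0.109 rpmm. A tissue's miRNAs were tested where at least 10% of its libraries reached 1 rpmm, and all 5 members passed in all 16 tissues and in all 6 tissues of the parabiosis cohort. Of the 768 libraries, 10 had a miRNA profile closer to the mean of another tissue than to that of their own, among them 1 of skin (closest to liver), 1 of pancreas (closest to limb muscle) and 1 of SCAT. They were kept, and leaving them out ended none of the calls reported for single members below. These are bulk RNA samples, in which fewer cells of a type and less RNA per cell cannot be told apart. Nothing in the labels ties tissues to mice in the aging cohort, so tests across tissues treat libraries of one mouse as independent.

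The family was highest in the small intestine, kidney, lung, pancreas and skin, and it was also high in brain. miR-200c-3p ran from 835 to 18765 rpmm in the 50 small-intestine libraries, with a median of 7843 and a mean of 8278 ± 3108 (SD). Its median was 3307 rpmm in lung (55 libraries, 904 to 6617), 1844 in pancreas (45 libraries, 8.17 to 5942), 1777 in skin (47 libraries, 30.01 to 4983), 1275 in kidney (51 libraries, 123 to 3095) and 587 in brain (51 libraries, 1.95 to 2087). The lowest skin and pancreas libraries of these ranges were those that resembled liver and limb muscle. Every other tissue stayed below a median of 100 rpmm.

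Among those other tissues miR-200c-3p had medians of 92.1 rpmm in marrow, 91.1 in spleen, 62.6 in SCAT, 34.6 in liver, 28.5 in GAT, 21.1 in bone, 20.4 in heart, 18.0 in mesenteric fat (MAT), 15.4 in limb muscle and 10.2 in brown fat (BAT). Ordered by the mean of log2(rpmm + 1), only 1 of the 15 steps between neighbouring tissues was larger than the larger SD of the pair for miR-200c-3p, that from small intestine to lung (1.24). All other neighbours of this member, brain and the tissues after it included, did not differ beyond their spread. The highest tissue median was 767 times the lowest for miR-200c-3p, and 487 to 639 times for the other 4 members.

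miR-429-3p had a different order. Its median was 7786 rpmm in kidney (1160 to 16950), 7379 in small intestine (1278 to 13821), 4006 in lung (1145 to 8113) and 3311 in brain (13.0 to 15104), ahead of skin (1851) and pancreas (1131). The remaining tissues ran from 109 in liver to 16.0 in BAT. The fall from pancreas to liver, 3.10 on the log2 scale between means of log2(rpmm + 1), was larger than the spread, as was that from kidney to lung (0.89).

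**Figure D1:**
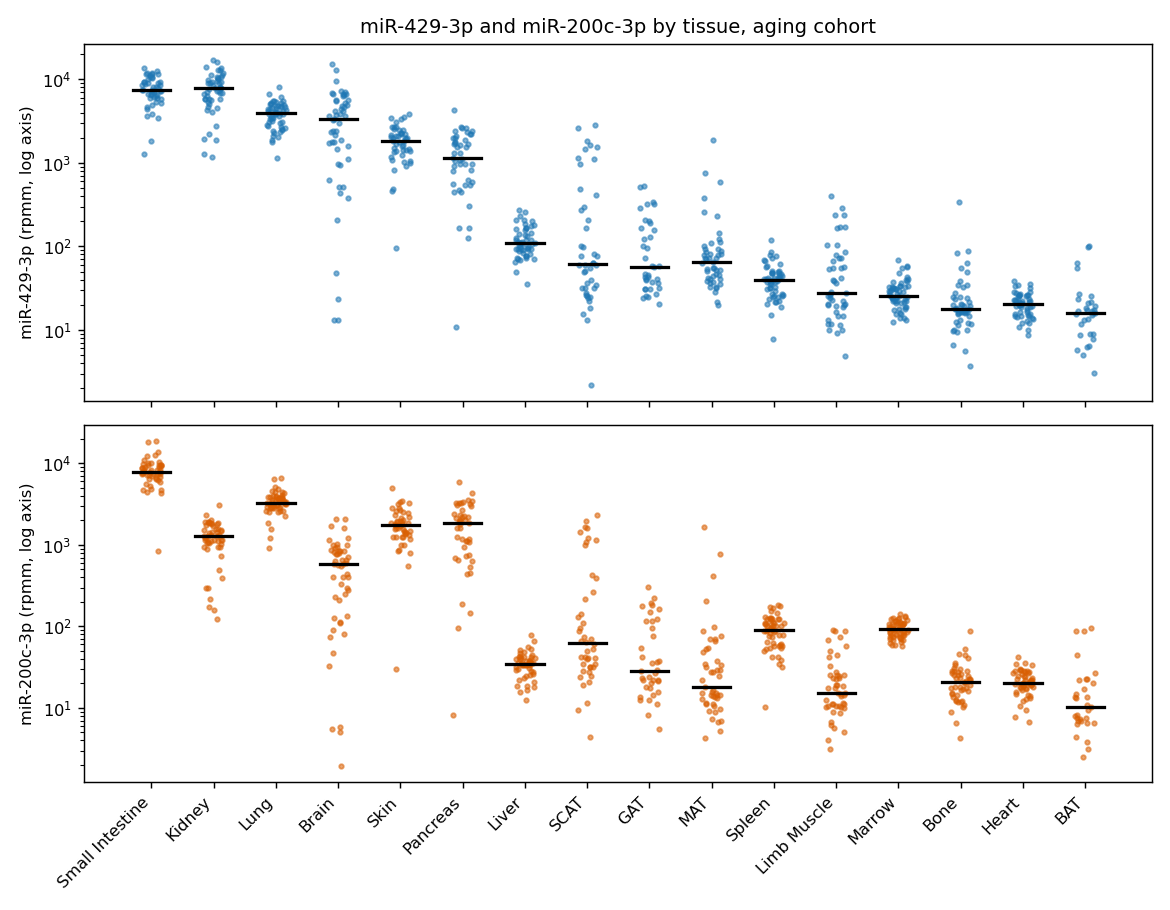
Level of miR-429-3p (top) and miR-200c-3p (bottom) in each library of the aging cohort, in rpmm on a log axis, with tissues ordered by the mean of log2(rpmm + 1) of miR-429-3p; each point is a library and each bar a tissue median. Both members fall steeply after the 6 tissues on the left, and kidney and brain stand higher for miR-429-3p (medians 7786 and 3311) than for miR-200c-3p (1275 and 587).

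The contrast of the 5 organs lined by or built of epithelium (small intestine, kidney, lung, pancreas and skin) with heart, limb muscle, brain, spleen, marrow and bone tests how far the family marks epithelium among all miRNAs. Liver and the 4 fats stood in neither set, and the organs were chosen with earlier results known. The replicates of this fit were libraries, not organs. Its SE and p-values thus measure the spread between libraries within tissues, not that between the organs of a set. All 5 were higher, with differences between group means of log2(rpmm + 1) of 5.86 ± 0.10 (SE) for miR-200b-3p, 5.75 ± 0.09 for miR-429-3p, 5.56 ± 0.08 for miR-200a-3p, 5.39 ± 0.09 for miR-200c-3p and 5.37 ± 0.09 for miR-141-3p. They took places 2 to 6 of 845 miRNAs ranked by this difference, behind miR-375-3p, an endocrine-cell miRNA (5.92). Calls were frequent in this contrast: 89.1% of the 845 miRNAs passed an adjusted p of 0.05 (limma), 32.1% of the 845 as higher, the median over all 845 was -0.13, and the largest adjusted p of a member was 5.2e-238. The 13 other epithelial miRNAs that were listed all passed as higher too, with a median difference of 3.01. Liver is built of hepatocytes, which are epithelial cells, and its miR-200c-3p median was 34.6 rpmm. With liver among the epithelial organs, an alternative chosen after seeing the data, the differences were smaller but passed for all 5, from 4.39 ± 0.08 for miR-200c-3p to 5.06 ± 0.09 for miR-200b-3p, at places 1, 2, 4, 6 and 7 of 873 miRNAs.

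The 5p arms of the same precursors were much rarer. In the small intestine the mean of each 3p arm was 5.87 times that of its 5p arm for miR-200a, 36.7 times for miR-141, 99.2 times for miR-200b, 453 times for miR-200c and 524 times for miR-429. In kidney the same ratios were 6.79, 45.9, 105, 644 and 787. All 5 of the 5p arms passed the filter in kidney, lung, pancreas, SCAT, skin and small intestine, and none did in bone.

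Over the 16 tissue means, and apart from arms of the same precursors, the miRNAs closest in pattern to the family were miR-375-3p (Pearson r of 0.80 to 0.86 with the 5 members), miR-183-5p (0.78 to 0.85) and miR-183-3p (0.82 to 0.85), followed by miR-582-5p and by miR-182-5p and miR-96-5p, which share a precursor cluster with miR-183 and are known from sensory cells. The 5 nearest of 492 candidate miRNAs were taken for each member. The 16 points share libraries of one normalisation, and the values are a description.

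The clusters contributed unequally. The family summed to a median of 23367 rpmm in small intestine, 14511 in kidney, 11979 in lung, 6680 in pancreas, 5548 in brain and 5403 in skin, which was 6.21%, 3.70%, 2.17%, 4.96%, 1.00% and 2.24% of the miRNA signal of those tissues, against 0.0116% in heart. The chromosome 4 cluster gave a median of 84.1% of the family signal in kidney (66.0% to 90.2%), 80.6% in brain (59.4% to 88.2%) and 74.7% in liver. It gave 66.9% in limb muscle, 65.2% in GAT, 49.0049% in small intestine, 50.02% in skin, 50.7% in lung and 43.9% in pancreas, but only 25.4% in spleen (8.89% to 43.5%) and 24.5% in marrow.

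The member with the highest value followed the same division. miR-429-3p led in 51 of 51 kidney, 51 of 51 brain and 51 of 51 liver libraries. miR-200c-3p led in 56 of 56 marrow libraries. In spleen miR-141-3p led in 29 and miR-200c-3p in 26 of 55, and in pancreas miR-141-3p led in 26 and miR-200c-3p in 18 of 45.

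**Figure D2:**
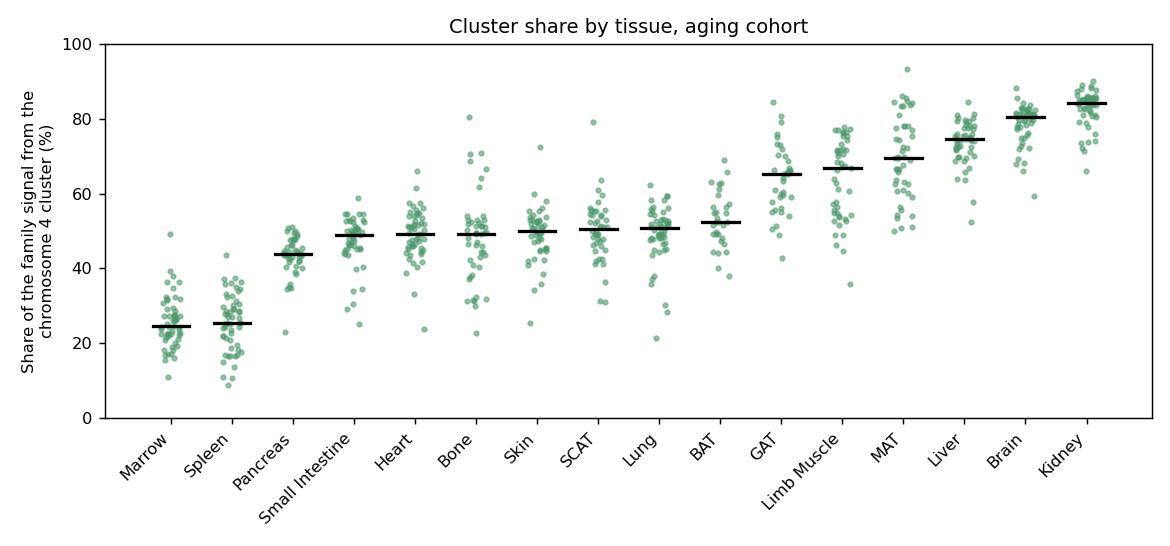
Share of the summed signal of the 5 members that came from the chromosome 4 cluster (miR-200b, miR-200a and miR-429), in percent, for each library of the aging cohort by tissue; bars are medians. The medians of marrow and spleen are 24.5% and 25.4%, that of pancreas is 43.9%, those of BAT, lung, SCAT, skin, bone, heart and small intestine lie from 49.0049% to 52.3%, those of GAT, limb muscle and MAT from 65.2% to 69.6%, and those of liver, brain and kidney from 74.7% to 84.1%.

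Within a tissue the members rose and fell together across libraries, most tightly in SCAT, where Pearson r between pairs of members was 0.95 to 0.98 over 44 libraries, and in brain (0.91 to 0.99 over 51). In BAT, the tissue with the lowest medians, it was 0.88 to 0.95. The link was looser in lung (0.02 to 0.83), with a median r of 0.50 within clusters and 0.38 across them, and in spleen, with 0.61 and 0.43. In marrow the median r was 0.71 within clusters and 0.33 across them, in liver 0.61 and 0.40, and in heart 0.66 and 0.42. Not all tissues had this form: it was 0.946 within and 0.962 across in brain, 0.907 and 0.929 in pancreas, and 0.838 and 0.831 in skin. All values of a library share its depth and scaling, and these correlations are given as a description.

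The balance between the seed classes also varied among libraries. A pair of ratios was taken on the log2 scale after adding 1 rpmm: miR-200a-3p over miR-200b-3p for chromosome 4, and miR-141-3p over miR-200c-3p for chromosome 6. The ratios are built of the twins named above, so reads that stand under the wrong twin may link them, which was not tested. How closely these ratios followed each other depended on the tissue. In the aging cohort their Pearson r ran from -0.08 in bone and 0.17 in small intestine to 0.82 in spleen and 0.86 in brain, and in the parabiosis cohort from -0.28 in MAT and 0.02 in liver to 0.79 in kidney, as a description. The titles number the libraries of each tissue, and the labels do not say what the numbers mean. Of 78 sets of 12 consecutive title numbers with at least 4 libraries, 4 had both ratios more than 1 log2 unit above the median of the other libraries of their tissue, and 0 had both more than 1 below.

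These 4 sets were singled out after their values were seen. In the 12 brain libraries numbered 25 to 36 the median ratios were 1.04 and 1.51, against -0.56 and -0.20 in the other 39. In the 9 kidney libraries numbered 1 to 12 they were 0.85 and 1.196, against -0.79 and -0.58 in the other 42. The 8 MAT libraries numbered 49 to 60 had 0.76 and 0.87, against -0.70 and -0.56 in the other 39, and the 8 spleen libraries of the same numbers had 0.61 and 1.33, against -0.65 and -0.04 in the other 47. That both ratios are high in these sets follows from how the sets were picked. The summed miRNA signal was also lower in the brain set (median 199346 rpmm against 601039) and in the kidney set (116723 against 407682). It differed less in MAT (397285 against 450073) and spleen (237854 against 254455). The part of RNA handling or sequencing in these ratios was not tested.

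In the kidney set the medians in rpmm were lower for all 5 members. Its median was 406 rpmm for miR-200b-3p against 2295 in the other kidney libraries, 2204 against 8357 for miR-429-3p, 296 against 1362 for miR-200c-3p and 532 against 1259 for miR-200a-3p and 685 against 846 for miR-141-3p. Per-million of the miRNA reads, the set was lower for miR-200b-3p (3278 against 5360) and miR-200c-3p (2534 against 3225) but higher for miR-429-3p (24488 against 19978), miR-200a-3p (5646 against 3144) and miR-141-3p (4684 against 2191). The direction for miR-429-3p, miR-200a-3p and miR-141-3p thus depended on the scaling.

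Brain libraries varied widely. miR-429-3p spanned 13.0 to 15104 rpmm over its 51 libraries and miR-200c-3p 1.95 to 2087, with 4 libraries below 6 rpmm of miR-200c-3p at ages of 1, 1, 12 and 15 months. The median of miR-200c-3p was 112 rpmm (1.95 to 283) in the 12 libraries numbered 25 to 36 and 711 (5.11 to 2087) in the other 39. Per-million of the miRNA reads, a scale that sets aside the lower miRNA signal of those 12 libraries, the medians were 579 and 1183. On that scale miR-200b-3p (450 against 1177) and miR-429-3p (3961 against 7381) were lower in the 12 libraries too. But miR-200a-3p (1074 against 752) and miR-141-3p (1754 against 987) were higher in them.

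The brain level tracked that of the miR-183 cluster. miR-200c-3p and miR-182-5p had a Pearson r of 0.97 over the 51 libraries on the log2(rpmm + 1) scale (Spearman rho 0.90, permutation p = 1e-05 for each, the smallest that 100000 shuffles can give, adjusted p = 4.35e-05 and 5.78e-05 over 335 relations). Leaving out the pair of libraries farthest from the median level gave 0.97, and r was 0.96 after removing the means of the title-number sets and 0.96 after removing the means of the library plates. miR-183-5p (r 0.97) and miR-96-5p (r 0.97), the other members of that cluster, behaved alike, whereas the skin miRNA miR-203-3p gave 0.66, and 0.47 with set means removed. These relations were among 335 between miR-200c-3p and listed miRNAs, each within 1 tissue or sex of 1 cohort. How the hemibrains were cut, and with it the share of olfactory tissue, was not recorded in the sources used here and was not tested.

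**Figure D3:**
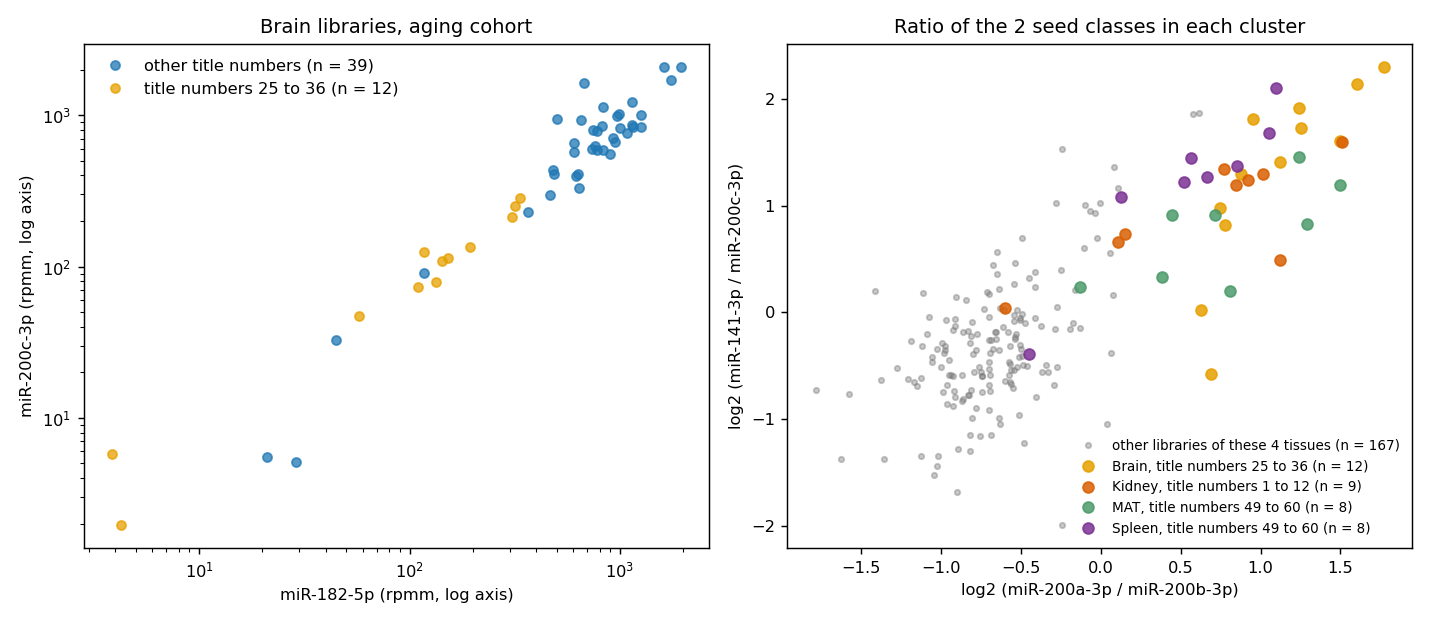
Left, miR-200c-3p against miR-182-5p in the 51 brain libraries of the aging cohort (rpmm, log axes), coloured by title number; both miRNAs run together over the whole range (r 0.97). Right, log2 ratio of miR-141-3p to miR-200c-3p against that of miR-200a-3p to miR-200b-3p in brain, kidney, MAT and spleen; each point is a library, and most libraries of the 4 coloured sets lie above 0 on both axes while most others lie below.

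A few MAT libraries stood far above the rest. miR-200c-3p had a median of 18.0 rpmm there, but 1654 in a 12-month male, 776 in a 6-month female and 410 in a 9-month female. The same 3 libraries held 8856, 3113 and 1742 rpmm of miR-192-5p, an intestinal miRNA with a median of 250 in MAT. They held 5.27, 3.75 and 3.26 rpmm of miR-216a-5p, a marker of pancreatic acinar cells, below its MAT median of 7.54. But they held 665, 356 and 168 rpmm of miR-375-3p, the endocrine-cell miRNA, which ran from 4.05 to 665 in MAT. A 6-month male with 98.9 rpmm of miR-200c-3p held 172 of it. Over the 47 MAT libraries miR-200c-3p and miR-192-5p had an r of 0.91 (rho 0.78, permutation p = 1e-05 for each, adjusted p = 4.35e-05 and 5.78e-05), 0.83 without the 2 farthest libraries, 0.92 with set means and 0.88 with plate means removed. The r with miR-216a-5p was 0.004 (permutation p = 0.98, rho 0.12, p = 0.41, adjusted p = 0.99 and 0.51). The part of intestinal tissue in the MAT libraries was not tested beyond these values.

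In GAT the closest partner was miR-375-3p, with an r of 0.90 over 37 libraries (rho 0.92, permutation p = 1e-05 for each, adjusted p = 4.35e-05 and 5.78e-05, r 0.90 without the 2 farthest libraries, 0.89 with set means and 0.90 with plate means removed). In skin it was miR-203-3p, the keratinocyte miRNA, with an r of 0.93 over 47 libraries (rho 0.86, permutation p = 1e-05 for each, adjusted p = 4.35e-05 and 5.78e-05), which was 0.81 without the 2 farthest libraries, 0.92 with set means and 0.92 with plate means removed. The lowest skin library, which resembled liver, was kept in it. miR-205-5p, another epidermal miRNA, gave an r of 0.92 there.

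The sexes differed most in SCAT. If SCAT was the inguinal pad, as the methods have it, the pad of mice also carries mammary gland tissue, and no marker list for that gland was used here. miR-200c-3p was between 267 and 2314 rpmm in the 11 females of 1 to 21 months (median 1228) and between 4.403 and 424 in the 27 males of the same ages (median 41.03). All but 2 of the females were above every male. For miR-429-3p the females ran from 414 to 2840 (median 1452) and the males from 2.20 to 274 (median 39.1), and the groups did not overlap at these ages.

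The other members had the same form. miR-200b-3p was 91.8 to 771 in females and 0.315 to 66.6 in males, and miR-200a-3p 67.9 to 476 and 1.26 to 25.6, both without overlap. miR-141-3p was 170 to 2094 in females and 2.20 to 238 in males, with 1 female among the highest males. The lowest male was the 3-month library that stood apart from SCAT. The 3 males of 27 months lie outside this comparison of 1 to 21 months. One of them held 187 rpmm of miR-200b-3p and 80.4 of miR-200a-3p, above the lowest females, with 299 of miR-429-3p, 96.8 of miR-200c-3p and 52.3 of miR-141-3p, while the other two had 22.1 and 4.85 of miR-200b-3p and 17.3 and 3.10 of miR-200a-3p.

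Female minus male differences in SCAT, with age as a factor, were 4.64 ± 0.38 (SE) for miR-429-3p, 4.51 ± 0.39 for miR-141-3p, 4.42 ± 0.40 for miR-200c-3p, 4.28 ± 0.31 for miR-200a-3p and 4.26 ± 0.37 for miR-200b-3p on the log2(rpmm + 1) scale. Adjusted p-values ran from 8.2e-15 to 3.5e-12 (limma, 587 miRNAs). In SCAT 11.8% of the miRNAs passed, 4.43% as higher and 7.33% as lower in females. All 5 calls held under all 9 alternatives, where the differences lay between 3.46 and 5.02, and with each of the 44 SCAT libraries of all ages left out in turn. All 5 of the 5p arms passed as well, from 1.32 ± 0.12 for miR-200b-5p to 3.37 ± 0.26 for miR-200a-5p.

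Of the 13 other epithelial miRNAs on the list, 5 passed as higher in the SCAT of females and 0 as lower, with a median difference of -0.21 over the 13. They were miR-205-5p (4.49 ± 0.55), a miRNA of basal epithelial cells, miR-31-5p (3.52 ± 0.32) and the cluster of miR-182-5p (3.24 ± 0.30), miR-183-5p (2.43 ± 0.29) and miR-96-5p (2.21 ± 0.24). miR-203-3p of the epidermis had a difference of -0.63 ± 0.35 (adjusted p = 0.21). miR-375-3p had 0.21 ± 0.31 (adjusted p = 0.63). The lists for muscle, liver, blood cells, fibroblasts, intestine, acinar pancreas and ciliated cells had 0 members that passed in either direction in SCAT by limma. The summed level of the skin markers miR-203-3p and miR-205-5p was 867 to 3664 rpmm in females (median 1858) and 22.3 to 1978 in males (median 329), and 1 of the 2, miR-205-5p, passed. Of the other lists, 1 of 4 neuronal markers, miR-138-5p (-0.85 ± 0.28), and 1 of 4 vessel markers, miR-126a-3p (-0.93 ± 0.23), were lower in females. The part of mammary or other epithelial tissue in the SCAT difference was not tested.

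The few males with the most miR-205-5p also held much miR-203-3p. The 4 highest males of SCAT for miR-205-5p held 1230, 610, 584 and 343 rpmm of it together with 748, 617, 443 and 398 rpmm of miR-203-3p, and 217, 131, 110 and 86.6 rpmm of miR-200c-3p. The 11 females held 732 to 3412 rpmm of miR-205-5p with 36.5 to 290 rpmm of miR-203-3p. Males did not all share this: a 3-month male held 757 rpmm of miR-203-3p with 62.1 of miR-205-5p. The male with the most miR-200c-3p (424 rpmm) held 242 of miR-205-5p and 245 of miR-203-3p, the latter within the female range. Within the 11 females miR-200c-3p followed miR-31-5p (r 0.94, permutation p = 0.00033, rho 0.85, p = 0.0014, adjusted p = 0.00098 and 0.0044, r 0.79 without the 2 farthest libraries and 0.92 with set means removed).

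**Figure D4:**
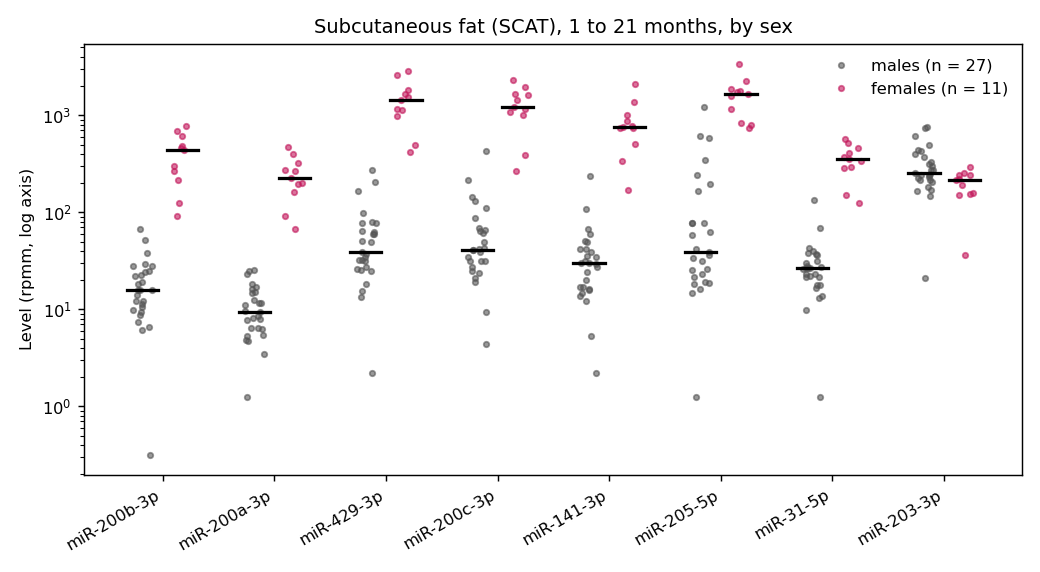
Level in each SCAT library of 1 to 21 months (rpmm, log axis) of the 5 members and of miR-205-5p, miR-31-5p and miR-203-3p, by sex; each point is a library and bars are medians. The medians of females (11 libraries) lie above those of males (27 libraries) for all 5 members, for example 1228 against 41.03 rpmm for miR-200c-3p. Some libraries of the sexes overlap for miR-200c-3p, miR-141-3p, miR-205-5p and miR-31-5p, and many for miR-203-3p.

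The sex difference of SCAT was also set against the mean of the same difference in the other 15 tissues, in a model of all tissues chosen after the SCAT values were seen. It was larger in SCAT by 4.62 ± 0.42 for miR-429-3p, 4.53 ± 0.41 for miR-141-3p, 4.42 ± 0.43 for miR-200c-3p, 4.19 ± 0.42 for miR-200b-3p and 4.16 ± 0.37 for miR-200a-3p, with adjusted p-values from 2.2e-24 to 3.7e-20. Of 880 miRNAs, 8.52% passed this test and 3.07% as higher in SCAT.

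Over all 16 tissues 12 of 80 pairs of a member and a tissue passed for sex, 9 higher and 3 lower in females, where 4.45% of all pairs of a miRNA and a tissue passed. The 7 pairs outside SCAT were smaller. In GAT miR-200c-3p was 5.44 to 118 rpmm in 13 females (median 22.1) and 8.21 to 304 in 20 males (median 44.99), with broad overlap. The female minus male difference was -1.45 ± 0.39 (adjusted p = 0.012), and it passed under all 9 alternatives and without any one library.

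miR-141-3p (-1.29 ± 0.41, adjusted p = 0.041) and miR-200b-3p (-0.93 ± 0.31, adjusted p = 0.0495) passed in GAT by a small margin. Both lost the call when values were divided by the miRNA signal, without the filter, with the title-number set as a covariate, and in 17 and 20 of 37 fits that left out 1 library. In GAT 9.87% of miRNAs passed, 5.43% as higher and 4.44% as lower in females. Markers of other cell types passed there too. miR-375-3p was lower in females (-1.56 ± 0.47), as was 1 of 3 markers of ciliated cells, miR-34c-5p (-1.14 ± 0.36), and 1 of 4 of vessels, miR-126a-3p (-0.58 ± 0.19), while the muscle miRNAs miR-206-3p (2.96 ± 0.40), miR-133a-3p (1.42 ± 0.24) and miR-1a-3p (1.28 ± 0.27) were higher, 3 of the 5 muscle markers tested, as were 2 of 4 neuronal markers, miR-9-5p (1.18 ± 0.24) and miR-138-5p (0.63 ± 0.17). Their part in the difference was not tested.

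In skin the 13 females were above the 28 males for miR-200c-3p (median 2610 against 1452 rpmm, 1260 to 4983 against 30.01 to 2109), miR-141-3p (1256 against 821) and miR-200b-3p (703 against 425), with overlap for each. The differences were 0.78 ± 0.28 (adjusted p = 0.034), 0.80 ± 0.26 (adjusted p = 0.016) and 0.76 ± 0.23 (adjusted p = 0.012), in a tissue where 28.7% of miRNAs passed, 12.7% as higher and 16% as lower in females. All 3 lost the call after division by the miRNA signal and with the set or the plate as a covariate, and miR-200c-3p also without the filter and without any one of 6 libraries. Beside them 2 of 3 fibroblast markers, miR-199a-5p (-0.79 ± 0.25) and miR-199a-3p (-0.64 ± 0.23), and 2 of 3 markers of ciliated cells, miR-34b-5p (-1.89 ± 0.18) and miR-34c-5p (-1.70 ± 0.17), were lower in females, while 2 of 5 blood-cell markers, 1 of 4 vessel markers and miR-375-3p (1.17 ± 0.22) were higher. Their part in the skin differences was not tested. In liver miR-200b-3p was 27.3 to 85.9 rpmm in 14 females (median 50.8) and 17.3 to 70.0 in 30 males (median 33.5), a difference of 0.59 ± 0.17 (adjusted p = 0.020) in a tissue where 8.58% of miRNAs passed, 3.59% as higher and 4.99% as lower in females. It lost the call after division by the miRNA signal, with set or plate as a covariate, and without 1 library, an 18-month one. Beside it 1 of 5 blood-cell markers, miR-223-3p (0.72 ± 0.21), was higher in females, no member of the other lists passed, and its part in the difference was not tested.

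Few pairs of a member and a tissue were called for age. Of the 80 pairs of a member and a tissue, 1 had a Spearman correlation of rpmm with age beyond 0.5, where 8.07% of all pairs of a miRNA and a tissue did. It was miR-200b-3p in marrow. Its median was 5.42 rpmm at 1 month (3.33 to 12.7), 7.60 at 3 months, 7.70 at 6, 11.3 at 9, 11.7 at 12, 11.8 at 15, 11.5 at 18, 16.1 at 21 (8.41 to 25.7), 11.5 at 24 and 12.6 at 27 months (7.998 to 29.9), with 6 libraries an age up to 21 months and 4 at 24 and 27. The median was lowest at 1 month, and the ranges of all ages overlapped.

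The correlation was 0.52 over 56 libraries (permutation p = 3e-05, adjusted p = 0.00073 over 532 miRNAs, of which 4.14% were above 0.5), with a Pearson r of 0.54 (permutation p = 2e-05), which became 0.52 once the 2 libraries farthest from the median age were left out. Its value may include reads of the more abundant miR-200c-3p. The correlation was 0.57 with set means and 0.58 with plate means removed. It was 0.47 in males alone and 0.44 without the 1-month libraries, which ended the call, and 0.499 without one 1-month library. By adjusted p alone, which 18.2% of marrow miRNAs passed and 11.7% as rising, the other members of the chromosome 4 cluster passed as well, miR-200a-3p with 0.47 (adjusted p = 0.0046) and miR-429-3p with 0.40 (adjusted p = 0.022). The members of the chromosome 6 cluster had -0.20 (miR-200c-3p, adjusted p = 0.34) and 0.18 (miR-141-3p, adjusted p = 0.40). miR-200c-3p, the most abundant member in marrow, had medians of 109 rpmm at 1 month and 78.6 at 27 months, with ranges of 69.3 to 132 and 58.5 to 107. The difference between the clusters was not tested.

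In each tissue every other age was compared with 3 months where both had at least 3 libraries. By limma 0 of 640 such comparisons of a member passed, where 2.67% of all did. At an unadjusted p under 0.05 there were 47 (7.34%), of which 43 were higher than at 3 months. The share of all miRNAs at this unadjusted threshold is not given here. The comparisons of a tissue share its 3-month libraries and the members vary together, so the 47 are not independent. The 640 differences ran from -1.79 to 3.80 on the log2(rpmm + 1) scale. edgeR on the recovered reads, run for 21 against 3 months, called 0 of 70, with 7 at an unadjusted p under 0.05. In that contrast of 21 with 3 months limma called 0 of 70, with 8 at an unadjusted p under 0.05, where 3.87% of all miRNAs passed. The differences ran from -0.88 to 3.30 with a median of 0.27, against a median of 0.17 for all miRNAs.

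In the parabiosis cohort the family was high and even in kidney. miR-429-3p had medians of 8049 rpmm in IY, 7899 in HY, 6466 in HA and 6120 in IA, with ranges of 7116 to 11902, 6541 to 9300, 5723 to 10152 and 5272 to 10750. The groups overlapped, and the IA minus IY difference was -0.38 ± 0.15 (adjusted p = 0.12). miR-200c-3p was 1258, 1267, 1464 and 1275 rpmm in the same groups.

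GAT and MAT varied more within every group than between groups. miR-200c-3p in GAT ran from 22.1 to 1882 rpmm in 8 IY mice, 14.4 to 7040 in 7 HY, 17.02 to 8107 in 7 HA and 24.8 to 14185 in 8 IA, and in MAT from 27.03 to 2757, 26.3 to 2691, 26.9 to 3532 and 115 to 3255. Group differences were within this spread, for example an IA minus IY difference of 1.61 ± 1.48 in GAT and 1.5001 ± 1.23 in MAT (adjusted p = 0.56 and 0.41).

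In MAT the 5 highest, 2 HA, 1 IA, 1 IY and 1 HY, held 2691 to 3532 rpmm of miR-200c-3p with 6274 to 8847 of miR-216a-5p and 7421 to 11091 of miR-375-3p, the acinar and endocrine markers of the pancreas. Other libraries carried more of the intestinal marker: an IY mouse with 1338 rpmm of miR-200c-3p had 308 of miR-216a-5p and 5329 of miR-192-5p, and an HA mouse with 634 had 18.2 and 2758. Over the 27 MAT libraries r was 0.94 with miR-375-3p (rho 0.94, permutation p = 1e-05 for each, adjusted p = 4.35e-05 and 5.78e-05) and 0.86 with miR-216a-5p (rho 0.82, permutation p = 1e-05 for each, adjusted p = 4.35e-05 and 5.78e-05), and without the 2 farthest libraries 0.94 and 0.86, or with group means removed 0.95 and 0.86. In the aging cohort, by contrast, miR-216a-5p stayed at or below 39.2 rpmm in every MAT library.

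In GAT of the parabiosis cohort the partners were miR-183-5p (r 0.93 over 30 libraries, rho 0.93) and miR-182-5p (r 0.92, rho 0.95), each with permutation p = 1e-05 and adjusted p = 4.35e-05 for r and 5.78e-05 for rho, with r of 0.92 and 0.91 without the 2 farthest libraries and 0.93 for both with group means removed. The IA library with 14185 rpmm of miR-200c-3p held 2410 of miR-205-5p and 411 of miR-182-5p, and the HY library with 14.4 held 4.87 and 2.24. Between these extremes the rise was not even. An IY library with 1110 rpmm of miR-200c-3p held 13.0 and 7.77, close to the 12.3 and 7.69 of an IY library with 155. The former held 1208 of miR-34b-5p and 595 of miR-375-3p, the latter 275 and 86.5. Acinar markers did not follow there, with an r of 0.05 for miR-216a-5p (permutation p = 0.78, rho -0.12, p = 0.54, adjusted p = 0.84 and 0.62). The part of tissue other than fat in these pads was not tested beyond these values.

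Heart gave the calls of the parabiosis cohort, at low levels. miR-200c-3p was 8.81 to 12.6 rpmm in IY (median 10.4), 5.43 to 14.1 in HY (median 7.36), 7.41 to 21.0 in HA (median 15.3) and 6.14 to 11.7 in IA (median 7.54). miR-141-3p was 3.21 to 13.9, 3.35 to 13.9, 5.71 to 21.4 and 4.12 to 9.58 in the same groups, with medians of 6.41, 5.25, 12.0 and 7.35. HA hearts had the highest median for both members, and their lowest libraries overlapped the other groups.

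HA minus HY, the age difference within heterochronic pairs, was 0.73 ± 0.19 for miR-200c-3p (adjusted p = 0.0073) and 0.91 ± 0.27 for miR-141-3p (adjusted p = 0.019). They were 2 of 30 pairs of a member and a tissue, where 9.81% of all pairs of a miRNA and a tissue passed and, in heart, 19.6%, or 11% as higher in HA. With the joined pair as a block the same 2 passed (adjusted p = 0.021 and 0.011), and miR-200c-3p passed in every fit that left out 1 library, while miR-141-3p lost the call without HA 14A or HA 2A (highest adjusted p 0.061). Both are members of the chromosome 6 cluster. The chromosome 4 member of heart with the highest level, miR-429-3p, had medians of 5.43 in HY and 9.78 in HA and did not pass. Beside them 3 of 12 tested epithelial miRNAs of the list were higher in HA hearts, miR-194-5p (0.61 ± 0.16), miR-203-3p (0.57 ± 0.11) and miR-31-5p (0.49 ± 0.12). So were 1 of 5 blood-cell markers, the lymphocyte miRNA miR-150-5p (0.87 ± 0.27), and 1 of 4 vessel markers, miR-145a-5p (0.58 ± 0.17). Of 6 muscle markers 1, miR-499-5p, was lower (-0.96 ± 0.29). The other markers of these 3 lists did not pass. Their part in the difference was not tested, and age and strain cannot be told apart in it.

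HA minus IA, the contrast in which aged mice differ by their partner, gave 0 of 30 calls by limma, 2 of 30 at an unadjusted p under 0.05 and 1 of 30 by edgeR, where 0.965% of all pairs passed. The 2 were again the heart values of miR-200c-3p (0.73 ± 0.18, adjusted p = 0.055) and miR-141-3p (0.68 ± 0.27, adjusted p = 0.11). miR-200c-3p passed by edgeR (0.83, adjusted p = 0.018), with median-ratio scaling, with a pseudocount of 10 and with a mean filter of 10 rpmm, and without any one of 10 libraries. HA minus HY and HA minus IA share the HA hearts. The partners of the HA mice were the HY mice, which were of another strain. In HA minus IA the age and the strain of the partner therefore cannot be told apart.

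**Figure D5:**
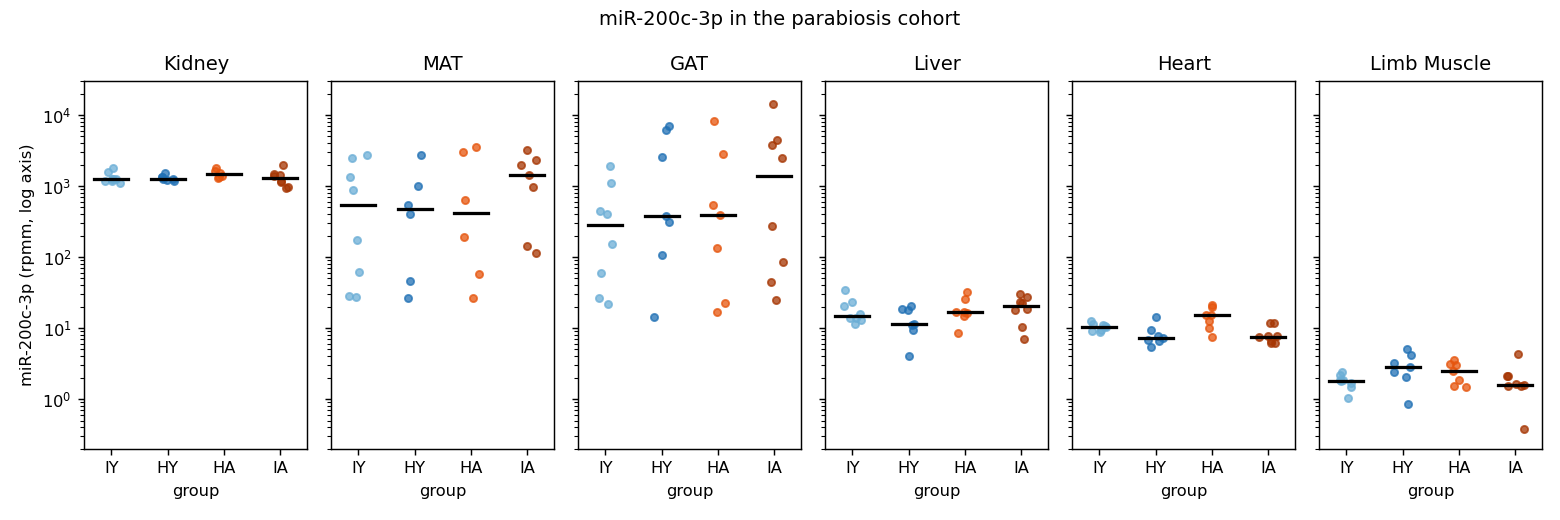
miR-200c-3p in each library of the parabiosis cohort (rpmm, log axis) by tissue and group; points are libraries and bars are group medians. Libraries lie close together in kidney (928 to 1967 rpmm) and are spread widely in every group of GAT (14.4 to 14185) and MAT (26.3 to 3532), and the HA hearts (median 15.3 rpmm) lie highest among the heart groups.

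HY minus IY gave 0 of 30 calls by limma and 0 by edgeR, where 0 of 3211 pairs of any miRNA and tissue passed by limma. At an unadjusted p under 0.05 there were 3 by limma and 4 by edgeR. The 3 were the chromosome 4 members in limb muscle, miR-429-3p (1.29 ± 0.53), miR-200b-3p (0.94 ± 0.34) and miR-200a-3p (0.65 ± 0.31), each with an adjusted p of 0.75, at levels whose medians over all limb muscles were 2.74, 0.972 and 0.530 rpmm. IA minus IY gave 0 of 30 calls by limma, 1 at an unadjusted p under 0.05, and 0 by edgeR with 2 at an unadjusted p under 0.05, where 8.13% of all pairs passed.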

How the data were processed

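Small RNA was sequenced by the study's authors as single-end reads on a BGISEQ500RS and assigned with miRMaster 2.0 and Bowtie (1 mismatch allowed) to miRBase, keeping the first of identical paralogs. The submitters' processing notes give the build mm10. The deposited signal is reads-per-million of the mapped reads (rpmm). The authors excluded libraries with under 2 M aligned reads and dropped RNAs below 1 rpmm everywhere. The tables list 7883 and 5248 RNAs. 3 of 771 columns of the aging table had no matching sample and were not used.

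Whole reads were recovered from the rpmm steps. Of nonzero miRNA values of at most 1000 reads, 99.0% and 98.8% came out whole within 0.05 reads. Higher values were not in this check. log2(rpmm + 1) was fitted with limma 3.58.1 (R 4.3.3, eBayes with trend) over all miRNAs at 1 rpmm or more in at least 10% of a tissue's libraries, with Benjamini-Hochberg adjustment within tissue and contrast at 0.05. Sex was fitted with age as a factor up to 21 months. Each age was set against 3 months, and the 4 parabiosis groups were fitted together per tissue. Age correlations were Spearman's, called beyond 0.5 either way, with 100000 shuffles and a two-sided permutation p. edgeR 4.0.16 (quasi-likelihood) on the recovered reads was an alternative. The fits were tested on simulated data. Sequences and coordinates are RefSeq and annotation on GRCm38.p6. Nothing states whether replicates of the aging cohort share cages or litters, so p-values measure the spread between these mice and libraries.

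Every member was named in every tissue, with values for pairs of a member and a tissue past a test, the 5p arms, 13 other epithelial miRNAs, and the 5 miRNAs nearest in tissue pattern. The members, lists and tests were chosen with earlier results of these data known. Title numbers pair the mice that were joined in surgery. The correlation within pairs was -0.28 (MAT), -0.16 (GAT), 0.080 (heart), 0.099 (kidney), 0.20 (limb muscle) and 0.24 (liver) over 5 to 7 pairs of HA and HY mice. The main fits treated joined mates as independent, also those within IA and within IY. The strain of the HY mice is not reported here.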

Additional observations from a re-analysis of the deposited data

Results flagged for a closer look

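Among 170 groups of 4 to 10 libraries checked for one library far from the rest (a check that flags about 1 in 20 groups by chance), 8 stood out. In kidney the IA library 6A had 10750 rpmm of miR-429-3p (group median 6120), and in limb muscle the same mouse had 6.74 rpmm of miR-200b-3p (median 0.798) and 4.13 of miR-200a-3p (median 0.483). In liver the HY library 2B was lowest, with 9.17 rpmm of miR-200b-3p (median 26.4), 4.07 of miR-200a-3p (median 15.1) and 3.28 of miR-141-3p (median 11.7). In marrow an 18-month library had 68.2 rpmm of miR-429-3p (median 32.9) and a 27-month library 15.3 of miR-200a-3p (median 6.10).

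The sex difference of SCAT differed from the mean of that in the other 15 tissues for all 5 members by a test of the difference itself (limma, chosen after the SCAT values were seen), by 4.53 for miR-141-3p, 4.16 for miR-200a-3p, 4.19 for miR-200b-3p, 4.42 for miR-200c-3p and 4.62 for miR-429-3p on the log2(rpmm + 1) scale.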

How the results depend on the processing

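The epithelial contrast and the sex difference of SCAT against other tissues called 5 of 5 members under every alternative run. For sex, 12 pairs of a member and a tissue became 7 with the title-number set as a covariate, 15 by edgeR, and 10 to 14 with 1 library left out. In bone, where no member passed for sex, miR-200a-3p and miR-429-3p passed after miRNA-signal or median-ratio scaling and by edgeR, and miR-200a-3p with the set as a covariate. A female bone library of 21 months was among those closest to another tissue, in its case SCAT. Its part in these bone calls was not tested. Other pairs gained were kidney miR-200b-3p (with miRNA-signal scaling, adjusted p = 0.0496, and with the plate, 0.043), GAT miR-200a-3p (with the plate and without libraries closest to another tissue) and GAT miR-429-3p (with the plate and by edgeR). The age steps, with 0 calls, gave 3 after division by the miRNA signal (in marrow, MAT and small intestine), 3 with median-ratio scaling (small intestine, lower at 21 months), 5 with the set and 7 with the plate as a covariate (kidney and liver), 2 in males alone (liver), and 0 to 4 with 1 library left out, the 4 without the kidney 1-month replicate 09. For 21 against 3 months the 0 became 2 after division by the miRNA signal and 3 with median-ratio scaling, and 0 to 2 with 1 library left out, the 2 without the small-intestine 21-month replicate 02. The age correlation called 1 pair, and 3 by adjusted p in place of the threshold, 2 with miRNA-signal scaling, 2 with median-ratio scaling, 2 with the set and 2 with the plate removed, 0 in males alone and 0 without the 1-month libraries. HA minus IA went from 0 to 1 call with median-ratio scaling, with a pseudocount of 10, with a mean of at least 10 rpmm and by edgeR, and to 0 to 2 with 1 library left out, the 2 without HA 20A. HA minus HY went from 2 to 1 with the mean filter, where miR-141-3p was no longer tested, and to 1 to 2 with 1 library left out. IA minus IY gave 0 to 1, the 1 without kidney IA 6A. With the pair as a replicate block HA minus HY again called 2. No called difference or correlation turned its sign. Apart from the mean filter, the cause of these changes was not tested.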
